A study of Mus musculus with 4 samples.

Results

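The enzymes of cholesterol biosynthesis were examined in the cortex of 12-month-old mice. The 8 genes, Hmgcs1, Idi1, Fdps, Fdft1, Sqle, Lss, Cyp51 and Dhcr7, were chosen by name from the 18386 features (genes, plus transcripts matched to no gene) of a whole transcriptome sequencing data set. RNA came from the cortex of 2 male APPswe/PS1ΔE9 transgenic mice (APP), a model of Alzheimer's disease, and of 2 age-matched male wild type mice (WT), all on a C57BL/6 background. The values are raw counts of reads on each transcript, summed here per gene, and CPM (counts scaled to a common library size) after TMM scaling, which corrects for library depth and composition. A dose, treatment or second age was not part of the design, and the only comparison is APP over WT. The libraries are named APP-3, APP-4, WT-1 and WT-2 after their columns in the deposited data.

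Cholesterol is made from acetyl-CoA by a long chain of enzymes. The mevalonate arm builds isoprenoid units and joins them into farnesyl diphosphate, squalene synthase commits that product to sterols, and the post-squalene arm closes the rings and trims lanosterol to cholesterol. In the brain, cholesterol is made locally because lipoproteins of the blood do not cross the blood-brain barrier, with astrocytes as a main source in the adult and oligodendrocytes using large amounts for myelin. When sterol in the endoplasmic reticulum is low, the factor SREBP2 is carried by SCAP to the Golgi, where proteases cut it, and the freed part enters the nucleus and binds sterol regulatory elements before the genes of the pathway, together with NF-Y at CCAAT boxes and Sp1 at GC boxes.

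The sequences before the start sites of 3 of the genes are printed because these letters are where SREBP2 and its partners are known to act on the pathway, and they are 3 of the 5 genes whose promoters were at hand. The RefSeq promoters (GRCm38.p6) were those of Hmgcs1, Lss, Cyp51, Dhcr7 and Idi1. Those of Sqle, Fdps and Fdft1, which had the largest fold changes of the 8, were not analysed here. Each is written 5′ to 3′ along the gene and ends before its first annotated exon, and capitals mark matches on either strand to the motifs searched, which were TCACNCCAC (a sterol regulatory element), its shorter form CACNCCAC contained within it, CCAAT (the box bound by NF-Y), GGGCGG (a GC box) and CACGTG (an E-box).
Hmgcs1, chr13:119690101-119690350, plus strand: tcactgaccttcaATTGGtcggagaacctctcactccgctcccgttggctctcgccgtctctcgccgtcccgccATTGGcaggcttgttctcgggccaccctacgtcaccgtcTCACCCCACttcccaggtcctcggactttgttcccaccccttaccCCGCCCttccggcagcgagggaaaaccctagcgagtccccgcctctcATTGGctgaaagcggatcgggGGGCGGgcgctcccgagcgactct
Lss, chr10:76531355-76531587, plus strand: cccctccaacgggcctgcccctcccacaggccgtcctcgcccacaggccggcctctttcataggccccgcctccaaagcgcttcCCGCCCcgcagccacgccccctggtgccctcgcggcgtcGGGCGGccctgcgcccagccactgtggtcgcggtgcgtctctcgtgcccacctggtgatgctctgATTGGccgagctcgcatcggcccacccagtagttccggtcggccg
Cyp51, chr5:4104747-4104947, minus strand: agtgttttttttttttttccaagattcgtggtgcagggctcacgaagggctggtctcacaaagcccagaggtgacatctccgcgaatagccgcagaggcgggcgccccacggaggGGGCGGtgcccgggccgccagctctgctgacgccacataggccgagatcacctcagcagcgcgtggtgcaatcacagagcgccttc

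Over the 250 bases before the start, Hmgcs1 held 1 match to TCACNCCAC, written TCACCCCAC, from 137 to 129 bases before the start. It also held 3 CCAAT boxes and 2 GC boxes. TCACNCCAC was present in 1.05% of the 32851 promoters of the table and CACNCCAC in 5.29%, while CCAAT was present in 33.8%, GGGCGG in 32.7% and CACGTG in 6.02%. Lss held 1 CCAAT box and 2 GC boxes, and Cyp51 held 1 of each, its CCAAT box lying nearer to the start than the printed stretch. Dhcr7 held 1 GC box. Idi1 held 2 CCAAT boxes and 1 GC box, all within 69 bases of the RefSeq start and beyond the point where its first annotated exon begins. No exact match to TCACNCCAC or CACGTG was present in these windows of Lss, Cyp51, Dhcr7 or Idi1. Other spellings of a sterol regulatory element were not searched, so the absence of this motif is not the absence of an element. The matches are letters in a window and were not tested as binding sites.

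The libraries held between 28525117 and 43881196 counts, and mitochondrial transcripts took 10.8% to 14.0% of them. The transgenes were visible in the APP libraries, where the App gene had 2679 and 2388 CPM against 857 and 905 CPM in WT. Both transgenes of the line of this name are known to be driven by the promoter of the prion protein gene Prnp, and Prnp itself had 1856 and 1622 CPM in APP against 527 and 535 CPM in WT. For a single gene, the exact two-sided permutation test over 2 against 2 mice cannot go below p = 0.33. Every adjusted p below is therefore a Benjamini-Hochberg value over all 18386 features from the quasi-likelihood test of edgeR unless another test is named, and it measures the spread between these mice only. The cortex samples were not alike in markers of neighbouring regions. The summed level of 8 markers of striatum was 189 CPM in APP-3 and 407 CPM in APP-4, on either side of 280 CPM and 298 CPM in WT. All 6 counted markers of hypothalamus were higher in both APP libraries than in both WT libraries, at low summed levels of 6.03 and 9.30 CPM against 1.46 and 0.987 CPM. In bulk tissue, more cells of a type and more RNA per cell cannot be told apart.

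Of the 8 enzymes, 7 had higher CPM in both APP mice than in both WT mice, and the exception was Idi1, while the count was 6 without TMM scaling, where Cyp51 overlapped, and 5 in length-scaled values (described below). Over all features, both APP libraries lay above both WT libraries in 21.3%. The differences were small. The median log2 fold change of the 8 genes was 0.22, beside -0.0011 over all features, and none of the 8 passed an adjusted p of 0.05 as a gene, where 1.14% of all features did. An unadjusted p under 0.05 with a higher level in APP was reached by 5 of the 8, Fdps, Fdft1, Sqle, Hmgcs1 and Lss, and by 7.36% of all features. Fdps, Fdft1 and Sqle, which act one after another in the middle of the chain, had the lowest p-values and ranked 274, 294 and 307 of 18386. Summed over the 8 genes, APP-3 reached 780.4 CPM and APP-4 696 CPM, and the WT mice had 635 and 627 CPM. The genes were chosen with earlier results of these data known, and these counts describe them.

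Hmgcs1 (chr13:119690379-119708260, plus strand, GRCm38 here and below) encodes the cytosolic synthase that makes HMG-CoA, a precursor of mevalonate. APP-3 had 430.2 CPM and APP-4 had 355 CPM, while the WT mice had 332 and 330.4 CPM. The WT mice were almost equal, and APP-3 lay farthest from them. The mean was 392 ± 53.5 CPM (SD, n = 2) in APP and 331 ± 0.960 CPM (SD, n = 2) in WT, with a log2 fold change of 0.24 (SE 0.091, 95% confidence interval 0.037 to 0.45, adjusted p = 0.313, edgeR). Without APP-3 the log2 fold change fell to 0.099, and without APP-4 it was 0.38, so the size of the change depended on which APP mouse was kept.

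Idi1 (chr13:8885501-8892451, plus strand) encodes the isomerase that interconverts the isoprenoid building blocks. Its levels were 40.0 and 39.7 CPM in APP-3 and APP-4 and 42.0 and 39.1 CPM in WT-1 and WT-2. The APP mice lay between the WT mice. The log2 fold change was -0.026 (SE 0.073, 95% confidence interval -0.19 to 0.14, adjusted p = 0.935, edgeR), so the interval of the fold ran from 0.875 to 1.10. Without WT-1 its sign turned to 0.027. Idi1 also has a counted near-copy, Gm13502, identical over 684 bases of aligned transcript and carrying 443 to 641 counts a library, and with the counts of both summed the value was 0.021.

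Fdps (chr3:89093588-89101959, minus strand), farnesyl diphosphate synthase, makes the last product that the sterol and the other isoprenoid branches share. APP-3 had 40.5 CPM and APP-4 had 44.7 CPM, and the WT mice had 32.2 and 33.1 CPM. Both APP mice lay above both WT mice, and here APP-4 was the higher of the APP pair. The mean was 42.6 ± 2.96 CPM (SD, n = 2) in APP and 32.7 ± 0.618 CPM (SD, n = 2) in WT, a log2 fold change of 0.38 (SE 0.078, 95% confidence interval 0.20 to 0.56, adjusted p = 0.0652, edgeR). This was the largest of the 8 changes, 1.30-fold. Several Fdps pseudogenes of close sequence have no counts in the table and were not analysed here.

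Fdft1 (chr14:63145150-63179578, minus strand) encodes squalene synthase, the first enzyme committed to sterols. Its levels were 77.0 CPM in APP-3 and 71.0 CPM in APP-4, against 59.8 CPM in WT-1 and 55.7 CPM in WT-2. The groups did not overlap, and the gap between them was larger than the gap within either pair. The log2 fold change was 0.36 (SE 0.074, 95% confidence interval 0.19 to 0.53, adjusted p = 0.0682, edgeR), from 57.7 ± 2.90 CPM in WT to 74.0 ± 4.25 CPM in APP (SD, n = 2 each). The 3′ end of Fdft1 shares 771 bases on the opposite strand with Ctsb, the lysosomal protease cathepsin B. Ctsb had 8362 to 10408 counts a library against 1973 to 2626 for Fdft1, and its log2 fold change was 0.30 (adjusted p = 0.0807, edgeR). The libraries were strand-specific, but whether strand was used in counting is not given in the sources used here, and the part of Ctsb reads in Fdft1 was not tested. A near-copy of Fdft1, Gm6781, had only 76 to 119 counts a library, and with both summed the log2 fold change stayed at 0.36.

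Sqle (chr15:59315077-59331192, plus strand), squalene epoxidase, adds the oxygen that allows ring closure and is a control point of the later arm. It had 58.0 and 52.3 CPM in APP-3 and APP-4 and 43.7 and 41.8 CPM in WT-1 and WT-2. As in Fdft1, APP-3 was the highest and WT-2 the lowest. The log2 fold change was 0.37 (SE 0.077, 95% confidence interval 0.19 to 0.54, adjusted p = 0.0714, edgeR), from 42.8 ± 1.36 CPM in WT to 55.1 ± 4.06 CPM in APP (SD, n = 2 each).

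Lss (chr10:76531588-76557138, plus strand), lanosterol synthase, closes the sterol rings. Its levels were 46.0 and 44.0 CPM in APP-3 and APP-4 and 39.0 and 41.0 CPM in WT-1 and WT-2. The groups were separate but close, with a log2 fold change of 0.17 (SE 0.071, 95% confidence interval 0.0076 to 0.33, adjusted p = 0.384, edgeR). Cyp51 (chr5:4081145-4104746, minus strand) encodes the demethylase that acts on lanosterol. It had 78.8 and 78.1 CPM in APP and 77.3 and 76.6 CPM in WT, the tightest values of the 8 genes. Its log2 fold change was 0.027 (SE 0.063, 95% confidence interval -0.12 to 0.17, adjusted p = 0.921, edgeR). Without TMM scaling, APP-4 fell to 77.0 CPM, below the 77.5 CPM of WT-1, so the order of its groups depended on the scaling. Cyp51 shares 166 bases on the opposite strand with Akap9. Akap9 had 6860 to 10631 counts a library against 2285 to 3399 for Cyp51, and the part of Akap9 reads in Cyp51 was not tested.

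Dhcr7 (chr7:143823145-143848410, plus strand), the reductase that ends one of the routes to cholesterol, had the fewest reads of the 8 genes, 289 to 396 counts a library. APP-4 was highest at 11.2 CPM, followed by APP-3 at 9.96 CPM, WT-2 at 9.48 CPM and WT-1 at 9.01 CPM. The groups did not overlap, but the spread within APP was wide for so small a difference. The log2 fold change was 0.20 (SE 0.12, 95% confidence interval -0.084 to 0.48, adjusted p = 0.586, edgeR), an interval that includes both no change and the changes fitted for Fdps, Fdft1 and Sqle. Leaving out APP-3 moved it to 0.28, and leaving out APP-4 moved it to 0.11. No difference between 2 enzymes was tested.

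**Figure D1:**
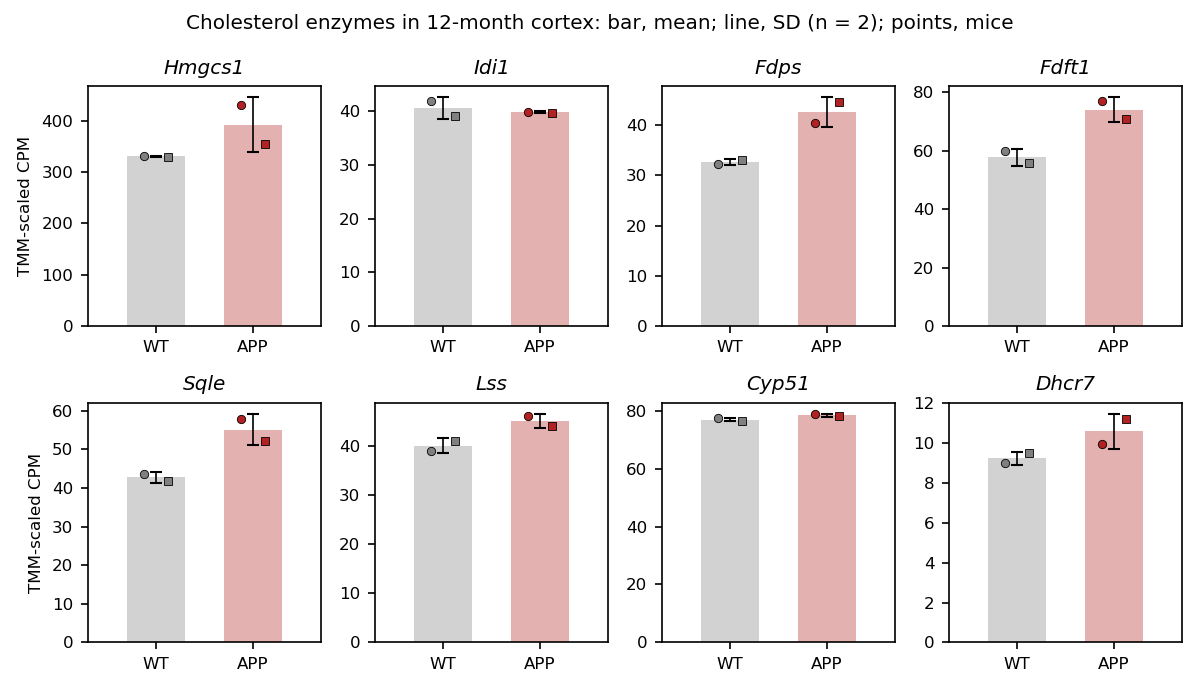
TMM-scaled CPM of the 8 enzymes in pathway order in the WT and APP libraries, with bars for the mean, lines for the SD (n = 2) and a point for each mouse (circles, WT-1 and APP-3; squares, WT-2 and APP-4). Fdps, Fdft1 and Sqle show the clearest separation, while the APP mice of Idi1 lie between its WT mice and Cyp51 lies between 76.6 and 78.8 CPM in every library.

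The calls on these genes depended on the test and on the libraries. DESeq2, edgeR's exact test and edgeR's likelihood ratio test each called the same 3 genes, Fdps, Fdft1 and Sqle, at an adjusted p under 0.05. These tests called 1.91%, 3.03% and 3.26% of all features. Raising the limit of the quasi-likelihood test to an adjusted p of 0.10, passed by 2.14% of all features, gave the same 3 genes, and restricting it to protein-coding features, of which 1.79% were called, gave Fdft1 alone. The adjusted p of Fdps was 0.0347 with DESeq2 and 0.0044 with the likelihood ratio test. Leaving out APP-3 or APP-4 left a lone APP mouse, assumed to vary as the WT pair did. The spread was then that of the WT pair alone. Many more of all features passed in those fits than in the fit of all 4 libraries. Fdps, Fdft1 and Sqle were among them, as was Hmgcs1 without APP-4. Passing there is therefore not comparable with a call in the fit of all 4 libraries. Leaving out WT-1 or WT-2 gave the call for none of the 8. Across the 4 fits the log2 fold change ran from 0.31 to 0.45 in Fdps, from 0.30 to 0.42 in Fdft1 and from 0.29 to 0.44 in Sqle, so the direction of these 3 genes was the same in each.

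**Figure D2:**
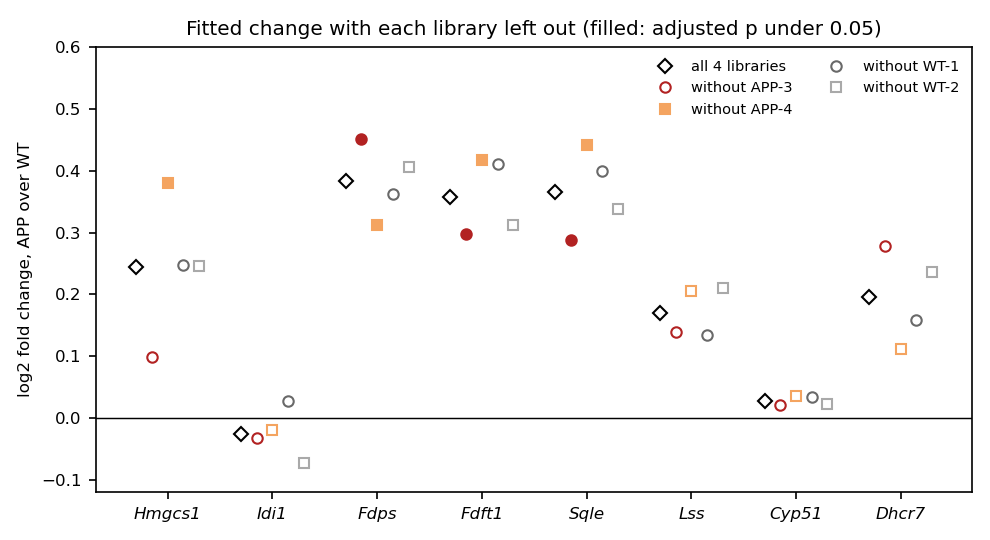
Fitted log2 fold change (APP over WT, vertical axis) of each enzyme with all 4 libraries (diamonds) and with each library left out in turn, filled where the adjusted p was under 0.05. Hmgcs1 ranges from 0.099 to 0.38, Idi1 crosses 0, and Fdps, Fdft1 and Sqle stay above 0.28 in every fit.

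The deposited rows are transcripts, and 16 transcripts of the 8 genes were counted, 9 protein-coding and 7 with a retained intron. Hmgcs1, Fdps, Fdft1 and Dhcr7 had 1 counted transcript each. Fitted as transcripts, over 37539 rows, the main protein-coding forms of 3 genes rose, where 1.06% of all transcripts were called in either direction. Sqle-201 rose by a log2 fold change of 0.39 (SE 0.083, adjusted p = 0.033, edgeR). Fdps-201 rose by 0.39 (SE 0.084, adjusted p = 0.0376) and Fdft1-201 by 0.36 (SE 0.081, adjusted p = 0.0448). The counts of Fdps-201 and Fdft1-201 are those of their genes, so the call, not the data, differs between both fits. Leaving out WT-1 or WT-2 removed all 3 calls, and 2 of the 3 were left among transcripts with at least 10 counts in every library. No retained-intron transcript was called, and their lowest adjusted p was 0.653 in Sqle-203.

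Among the 4 genes with retained-intron forms, these took the largest share of reads in Lss. In Lss they made up 34.6% and 41.2% of the counts of the APP mice and 37.6% and 38.2% of those of the WT mice. The APP mice had both the lowest and the highest share, so the groups overlapped. The largest of these forms, Lss-204, had 10.7 and 12.2 CPM in APP against 10.3 and 10.4 CPM in WT. The protein-coding Lss-201 had 29.6 and 25.3 CPM in APP against 23.8 and 25.1 CPM in WT (log2 fold change 0.17, SE 0.098, adjusted p = 0.675, edgeR). In Sqle the retained-intron share was 6.42% and 5.31% in APP and 6.82% and 7.49% in WT, lower in both APP mice, a difference that was not tested. In Cyp51 and Idi1 the share stayed under 1% in all 4 libraries. How reads on exons shared by several transcripts were divided is not given in the sources used here, which limits these shares.

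Levels of different genes were compared per length, as TPM (counts divided by transcript length and scaled to a common total). Hmgcs1 was the most abundant of the 8 in every library, at 204 and 154 TPM in the APP mice and 158 and 154 TPM in the WT mice. Fdps followed at 40.3 to 50.8 TPM, and Dhcr7 was the lowest at 4.95 to 5.59 TPM. Between them the order by mean level was Fdft1, Cyp51, Sqle, Idi1 and Lss. The ranges over the 4 libraries overlapped between the neighbours Fdps and Fdft1, Fdft1 and Cyp51, and Cyp51 and Sqle, and did not overlap between Sqle, Idi1, Lss and Dhcr7.

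On the TPM scale 5 of the 8 genes had both APP mice above both WT mice, beside 14.7% of all genes, since Hmgcs1 in APP-4 then lay below WT-1 and Cyp51 overlapped. The median log2 ratio of mean TPM was 0.20 for the 8 genes and -0.051 over all genes. Fdps was at 50.4 and 50.8 TPM in APP against 40.3 and 40.4 TPM in WT. Fdps, Fdft1 and Sqle stayed separate between the groups on this scale too, as did Lss and Dhcr7.

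**Figure D3:**
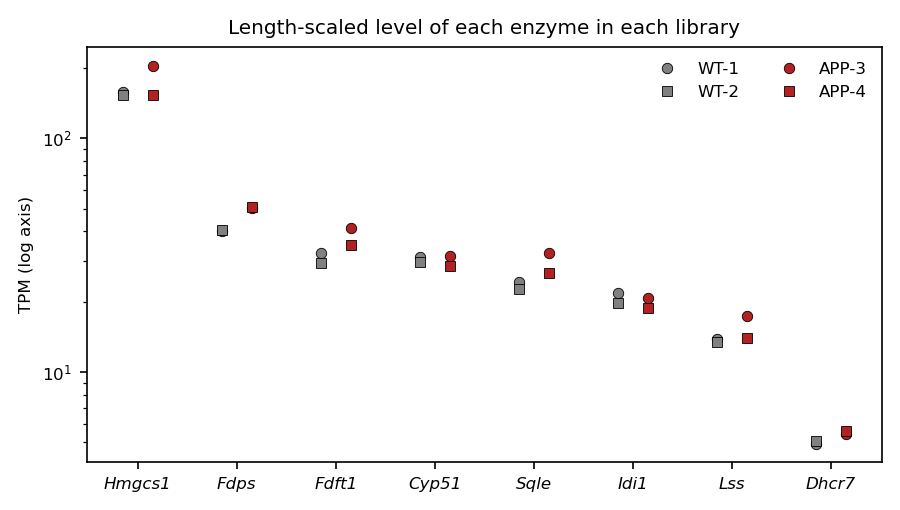
Level of each enzyme in TPM (log axis) in the WT libraries (grey) and APP libraries (red), ordered by mean level. Hmgcs1 stands above the rest at 154 to 204 TPM and Dhcr7 below at 4.95 to 5.59 TPM, and the groups are separate in Fdps, Fdft1, Sqle, Lss and Dhcr7.

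Other enzymes of the chain were compared as lists. Of 4 others of the mevalonate arm, all 4 were higher in both APP mice than in both WT mice, beside 21.3% of all features. None of the 4 was called, where 1.14% of all features were. The largest of these differences was in Acat2, the thiolase that starts the chain, with 41.9 and 44.8 CPM in APP against 34.3 and 31.5 CPM in WT, a log2 fold change of 0.40 (SE 0.079, adjusted p = 0.0577, edgeR). Acat2 was called by DESeq2 (adjusted p = 0.0222), by edgeR's exact and likelihood ratio tests and among protein-coding features. With or without TMM scaling, Acat2 was not called by the quasi-likelihood test over all features (adjusted p = 0.0544 without it, edgeR). With 1 library left out, the log2 fold change of Acat2 ran from 0.34 to 0.46. The smallest was in Mvd, which makes isopentenyl diphosphate for Idi1, at 10.2 and 11.3 CPM in APP and 9.99 and 9.93 CPM in WT (log2 fold change 0.11, SE 0.12, adjusted p = 0.805, edgeR). Without APP-4 it was 0.032 and without APP-3 0.18.

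Of 7 other enzymes after squalene, 5 lay higher in both APP mice and 1, Ebp, lay lower. Nsdhl, a dehydrogenase that helps remove methyl groups from the sterol, had the largest log2 fold change of these, with 12.6 ± 1.33 CPM in APP against 10.4 ± 0.828 CPM in WT (SD, n = 2 each), a value of 0.28 (SE 0.13, adjusted p = 0.429, edgeR). With APP-4 left out that value fell to 0.17, and with APP-3 left out it reached 0.38. Ebp, an isomerase of the sterol rings, had 7.93 and 7.43 CPM in APP against 8.12 and 8.46 CPM in WT (log2 fold change -0.11, adjusted p = 0.814, edgeR, and -0.061 without APP-4). Over these 11 enzymes the median log2 fold change was 0.11, against 0.22 for the 8 described here, and 0 of the 11 were called, beside 1.14% of all features. The difference between those medians was not tested. Over the 19 enzymes together, 16 lay above both WT mice in both APP mice and 1 below, where 21.3% of all features lay above and 21.4% below.

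**Figure D4:**
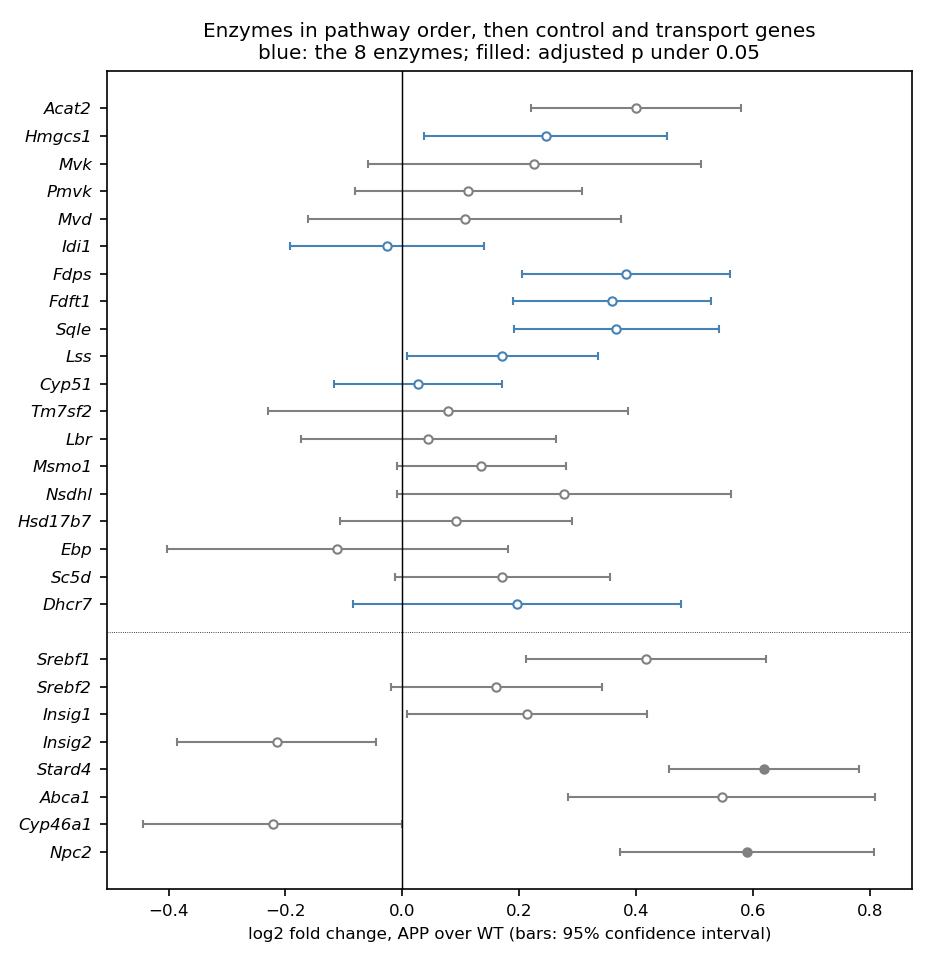
Log2 fold change (APP over WT) with 95% confidence interval for 19 enzymes in pathway order (blue, the 8 described here) and, under the dotted line, for genes of sterol control and transport. Filled points passed an adjusted p of 0.05, which only Stard4 and Npc2 did among the genes drawn, and the intervals of Fdps, Fdft1 and Sqle begin at 0.19 or above.

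The isoprenoid branch uses farnesyl diphosphate for prenylation, ubiquinone and dolichol. Of its 7 genes, 0 were separate between the groups in either direction and 0 were called. Among all features, 21.3% were separate with APP above, 21.4% with APP below, and 1.14% were called. The median log2 fold change of the branch was 0.0036. Its difference from the enzymes was not tested. Fntb, a subunit of farnesyltransferase, had the highest value at 0.11 (95% confidence interval -0.23 to 0.45, adjusted p = 0.853, edgeR), which ran from 0.0094 without WT-2 to 0.22 without WT-1. Pdss2, of ubiquinone synthesis, had the lowest at -0.066 (adjusted p = 0.884, edgeR), which turned to 0.055 without WT-1.

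Among 10 genes of SREBP control, 1 rose in APP and none fell, where 1.14% of all features were called. In 5 of them both APP mice lay above both WT mice and in 3, Scap, Insig2 and Mbtps2, below, against 21.3% and 21.4% of all features. Stard4, which carries cholesterol between membranes, had 43.8 and 43.7 CPM in APP against 28.0 and 29.1 CPM in WT, a log2 fold change of 0.62 (SE 0.071, adjusted p = 0.0065, edgeR). The groups did not overlap in this gene. Srebf1, which encodes the SREBP that favours fatty acid genes, had a log2 fold change of 0.42 (adjusted p = 0.0789, edgeR). It was called by edgeR's exact and likelihood ratio tests but not by DESeq2 (adjusted p = 0.104). With 1 library left out, the log2 fold change of Srebf1 ran from 0.36 to 0.48. Srebf2, the factor of the cholesterol genes, had 73.1 and 83.3 CPM in APP against 71.5 and 68.4 CPM in WT (0.16, adjusted p = 0.475, edgeR). Without APP-3 its log2 fold change was 0.25 and called (adjusted p = 0.0129, edgeR), and without APP-4 it was 0.065. The INSIG proteins hold SCAP in the endoplasmic reticulum, and neither gene was called, with log2 fold changes of 0.21 in Insig1 (adjusted p = 0.388, edgeR) and -0.22 in Insig2 (adjusted p = 0.275, edgeR). Insig1 ran from 0.11 without WT-2 to 0.33 without WT-1 and was 0.14 without APP-3. It was called without APP-4 (0.29, adjusted p = 0.0103, edgeR), as was Insig2 without APP-3 (-0.27, adjusted p = 0.0387, edgeR).

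Of 11 genes of cholesterol efflux, oxidation and esterification, 1 rose and 0 fell, 5 lay above both WT mice in both APP mice and 3, Abcg1, Nr1h2 and Cyp46a1, lay below, and the median log2 fold change was 0.22. The shares over all features were those given for SREBP control. Npc2, which hands cholesterol out of the lysosome, had 38.4 and 46.1 CPM in APP against 28.3 and 27.9 CPM in WT (log2 fold change 0.59, SE 0.095, adjusted p = 0.0276, edgeR). Without WT-2 its adjusted p was 0.0724. Abca1, the exporter that loads cholesterol onto apolipoprotein E, had 85.6 and 112 CPM in APP against 69.7 and 66.0 CPM in WT, and its log2 fold change of 0.55 was not called (adjusted p = 0.0733, edgeR). It was called by DESeq2 (adjusted p = 0.0005) and by edgeR's exact and likelihood ratio tests, and without either APP library, at 0.73 without APP-3 and 0.34 without APP-4. Cyp46a1, the neuronal hydroxylase through which the brain disposes of cholesterol, had the lowest value of the list, -0.22, with 38.6 and 47.4 CPM in APP against 49.3 and 51.0 CPM in WT (adjusted p = 0.412, edgeR). Without APP-4 the value was -0.37, and without APP-3 it was -0.083.

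Fatty acid synthesis, the other large SREBP programme, had 0 of 8 genes called, 4 above and 1 below both WT mice, and a median log2 fold change of 0.083. Here too the shares over all features were those given for SREBP control. Scd2, the main stearoyl-CoA desaturase of the brain, had 870 and 833 CPM in APP against 708 and 692 CPM in WT (0.28, adjusted p = 0.0779, edgeR). Scd2 was called by DESeq2 (adjusted p = 0.0056) and among protein-coding features. It was not called by edgeR's exact test (adjusted p = 0.176) or likelihood ratio test (adjusted p = 0.166). With 1 library left out, its log2 fold change ran from 0.25 to 0.32. Acss2, which makes acetyl-CoA from acetate, had the lowest value at -0.22 (adjusted p = 0.253, edgeR).

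The features whose profile over the 4 libraries was nearest to the mean profile of the 8 enzymes were Plcd4, Gm6030, Igfbp5, Cc2d1b and Dars, out of 9341 with a mean above 10 CPM. Likeness was measured as the Euclidean distance between log2 CPM profiles centred on their means, and over only 4 libraries many genes lie close. The nearest, Plcd4, lay at a distance of 0.015, with 15.7 and 15.3 CPM in APP against 13.6 and 13.3 CPM in WT. The enzymes lay between 0.077 (Lss) and 0.25 (Idi1) from their own mean profile. The APP mice were not ordered alike in them, since the CPM of APP-3 was 1.21 times that of APP-4 in Hmgcs1 and 1.11 times in Sqle, but 0.906 times in Fdps and 0.889 times in Dhcr7.

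Median log2 fold changes were positive for the oligodendrocyte, astrocyte and microglial markers and negative for the neuronal and endothelial markers. The summed level of 11 oligodendrocyte markers was 1380.1 and 1194 CPM in the APP mice, against 934 and 1021 CPM in the WT mice. All 11 were higher in both APP mice than in both WT mice, 3 of them were called, and their median log2 fold change was 0.43. Over all features, 21.3% lay above both WT mice in this way, 21.4% lay below and 1.14% were called. The myelin gene Mag had 56.7 and 48.2 CPM in APP against 29.8 and 34.8 CPM in WT. APP-3 was above APP-4 in this list, as it was in Hmgcs1, Idi1, Fdft1, Sqle, Lss and Cyp51 but not in Fdps or Dhcr7. WT-2 was above WT-1, as it was in Fdps, Lss and Dhcr7 but not in the other 5 enzymes. The part of oligodendrocyte RNA in the levels of the enzymes was not tested.

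Of 9 astrocyte markers the median change was 0.21 on the log2 scale, with summed levels of 5355 and 5723 CPM in APP against 4845 and 4403 CPM in WT, and 2 of them, Gfap and Aqp4, rose. Gfap, the marker of reactive astrocytes, had 327 and 372 CPM in APP against 46.9 and 52.3 CPM in WT. The 11 microglial markers had summed levels of 440.3 and 545 CPM in APP against 276 and 274 CPM in WT, with 6 called and a median of 0.74. The 10 neuronal markers were all expressed, at summed levels of 4934 and 4145 CPM in APP and 4658 and 4565 CPM in WT with a median of -0.076. In 1 of them both APP mice lay above both WT mice, and in 3 below. The 6 endothelial markers had a median of -0.085 and the 8 striatal markers a median of -0.017. The 5 thalamic markers, all higher in both APP mice, had a median of 0.93 with 1 called, at summed levels of 41.2 to 60.9 CPM. Of the 6 hypothalamic markers, 2 were called and 3 were at 0 in a WT library, and the 3 choroid plexus markers had a median of -0.13. For all these counts, the shares over all features were those given for the oligodendrocyte markers. The part of astrocytes, microglia or neighbouring regions in the levels of the enzymes was not tested either.

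**Figure D5:**
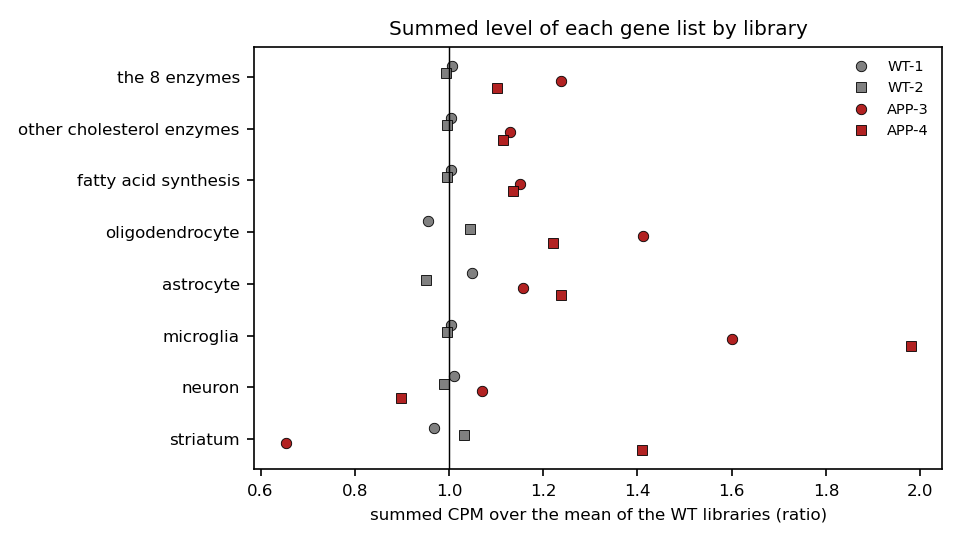
Summed CPM of each gene list in each library as a ratio to the mean of the WT libraries (WT, grey; APP, red; circles, WT-1 and APP-3; squares, WT-2 and APP-4). The 8 enzymes reach 1.24 and 1.10 in APP-3 and APP-4, the oligodendrocyte markers 1.41 and 1.22 and the microglial markers 1.60 and 1.98, while the striatal markers fall on both sides of 1 in the APP mice.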

How the data were processed

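The authors removed ribosomal RNA, sequenced strand-specific paired reads, aligned them to Ensembl mouse transcripts with FANSe2 and deposited raw counts per transcript without normalization. The deposit also holds 4 columns of log2 CPM, 1 for each library, which did not enter the work. The deposited log2 fold changes and mean CPM, p-values and FDR come from the authors' own edgeR comparison and were not used either. The submitters' processing notes name CASAVA 1.8, edgeR and the human build hg19, whose role is not given in the sources used here.

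The deposited gene symbol was blank in 22.0% of 37539 transcripts and altered in letter case, and an exact match found 0 of the 8 enzymes. Counts were therefore summed by transcript identifier in the GENCODE M21 annotation of GRCm38 (98.2% matched, 681 unmatched transcripts kept singly), in place of the planned sum by symbol, which became an alternative. The resulting 18386 features were fitted in R 4.3.3 with the quasi-likelihood test of edgeR 4.0.16, tested on simulated data. The fit used TMM, no covariate and no added filter, with a call at an adjusted p under 0.05. The authors took transcripts with at least 10 mapped reads as reliable, and 0 features here held fewer than 10 counts in total. TPM was computed from GENCODE transcript lengths. Near-copies were found with blastn 2.17.0. Tables used Python 3.11.15 and pandas 2.3.3. Errors are SDs over 2 mice.

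Alternatives were DESeq2 1.42.0, edgeR's exact and likelihood ratio tests, RLE factors, library totals, protein-coding features, at least 10 counts in every library, deposited symbols, a fold change of 1.5 in addition, and leaving out each library. An adjusted p of 0.10, transcripts in place of genes, TPM, and sums with near-copies were chosen after seeing the data. The enzymes and all lists were chosen with earlier results of these data known. The text names all 8, every called gene of the pathway lists, the largest and smallest change of each list, and Srebf2, Srebf1, Insig1, Cyp46a1 and Abca1. Some genes of the lists are not reported here and were left out of the list counts. App, Prnp, marker genes and genes that overlap or copy an enzyme were added after their values were seen. WT columns were matched to mice by number and APP columns to their group only. Reads carry no molecular identifiers.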

Additional observations from a re-analysis of the deposited data

How the results depend on the processing

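Over all features, 209 were called by the quasi-likelihood test, 338 by DESeq2, 557 by edgeR's exact test, 599 by its likelihood ratio test and 394 at an adjusted p of 0.10. Of the 8 enzymes, 0 were called by the quasi-likelihood test. DESeq2, the exact test, the likelihood ratio test, an adjusted p of 0.10 and transcripts in place of genes each called 3, and scaling over protein-coding features called 1, Fdft1. Of the 11 other enzymes 0 were called in the main comparison, and 1 with each of DESeq2, the exact test, the likelihood ratio test, protein-coding features and an adjusted p of 0.10. Leaving out each library in turn gave 135 to 1707 called features, 0 to 4 of the enzymes, 0 to 1 of the other enzymes and 0 to 4 of the enzymes' transcripts, most without an APP library and fewest without a WT library. The median log2 fold change then ran from 0.20 to 0.26 in the 8 enzymes and from 0.091 to 0.15 in the others. The number of enzymes above both WT libraries was 7 in the main comparison, 6 without TMM and 5 in TPM. Without WT-1, Idi1 turned to 0.027 and Pdss2 to 0.055 (over the 4 fits they ran from -0.073 to 0.027 and from -0.17 to 0.055), and Idi1 summed with its near-copy was 0.021. The cause of these changes was not tested.

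No paired analysis was possible because the groups are different mice, the labels name no litter, batch or day that a number shares, and the columns of the APP libraries carry other numbers than their labels. With 2 mice a group, the calls rest on the spread shared between genes, and the 95% intervals of Cyp51, Idi1 and Dhcr7 include 0.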
